A study of Mus musculus with 12 samples.

Results

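The collagen genes of the mouse were followed in skeletal muscle and testis by RNA sequencing. They were taken as every row of the deposited table whose symbol reads Col, a number, the letter a and a second number, which gave 44 of 47730 features. Their classes, assigned from textbook knowledge of collagen structure, were 11 fibrillar chains, 6 basement membrane type IV chains, 6 chains of the type VI family, 9 fibril-associated collagens (FACITs), 3 short-chain network collagens, 4 membrane collagens, 2 multiplexins, and 3 anchoring and other collagens. All 44 had a position in the mouse annotation, on 15 chromosomes.

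The samples were skeletal muscle (gastrocnemius together with plantaris) and testis of male C57BL/6J mice aged 5 to 6 months, fed freely, taken at the middle of the light phase. Mice were wild type (Bckdk+/+) or homozygous for a mutant Bckdk allele (BckdkM/M, titled KO) that had been crossed back to C57BL/6J for at least 10 generations. Bckdk encodes the kinase that inactivates the enzyme complex of branched-chain amino acid breakdown. The 12 libraries formed 4 groups of 3, muscle and testis of each genotype, and letters stand for the mouse numbers in the column names: A, B and C were wild type in both tissues, D and F gave both tissues of the mutant, E gave testis only and G muscle only.

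Collagens are secreted or membrane-bound proteins whose chains wind around one another into a rope-like helix. Fibrillar collagens form the load-bearing fibrils of connective tissue, type IV forms the sheet of basement membranes, type VI forms beaded filaments close to cells, and FACITs sit on the surface of fibrils or at tissue junctions. In muscle, collagens are made largely by fibroblasts between the fibres and by the cells of vessels, tendon and nerve. In testis the seminiferous tubules rest on a collagen-containing basement membrane and are wrapped by contractile peritubular cells.

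Libraries held 12852427 to 15795722 counted reads. Bckdk read 2214, 2421 and 2627 normalised counts in wild-type muscle and 12.4 to 14.8 in mutant muscle, but 68.0 to 73.3 in wild-type testis and 114 to 138 in the testis libraries labelled mutant. The testis value goes against the label, so testis differences are given for libraries labelled mutant. The marker genes of skeletal muscle summed to at least 1118700 normalised counts in each muscle library and those of germ cells to at least 117168 in each testis library. Pancreatic islet markers were also present in each library. Their sum was 29635 and 31447 in mutant muscle G and F against at most 15254 in the other muscle libraries, and 18404 and 18634 in testis B and A of the wild type against at most 13139 in the other testis libraries. Mitochondrially encoded genes took 11.5% of the reads in mutant muscle G and 7.65% to 8.21% in the other muscle libraries.

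Sequences before a RefSeq transcript start are shown for 4 collagen genes. They were chosen because they differed between the tissues and no annotated exon lies in their windows. Col3a1 and Col5a3 were at higher level in muscle, Col25a1 and Col28a1 in testis. Each sequence is the 250 bases before the RefSeq transcript start in GRCm38.p6, 5′ to 3′ on the gene's strand. In the GENCODE annotation Col25a1 runs from 130131501 to 130599877, so its window lies within the gene, before a later start. Capitals mark matches to the TATA box (spelled TATAAA), the CCAAT box (spelled as named) and the GC box (spelled GGGCGG), each searched on both strands, and no marked match overlaps another.
Col3a1, chr1:45311288-45311537, plus strand: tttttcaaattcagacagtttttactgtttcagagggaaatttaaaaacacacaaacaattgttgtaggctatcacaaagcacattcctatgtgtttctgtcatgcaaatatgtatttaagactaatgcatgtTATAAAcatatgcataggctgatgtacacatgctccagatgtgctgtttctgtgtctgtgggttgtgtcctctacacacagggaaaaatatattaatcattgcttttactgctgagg
Col5a3, chr9:20815068-20815317, minus strand: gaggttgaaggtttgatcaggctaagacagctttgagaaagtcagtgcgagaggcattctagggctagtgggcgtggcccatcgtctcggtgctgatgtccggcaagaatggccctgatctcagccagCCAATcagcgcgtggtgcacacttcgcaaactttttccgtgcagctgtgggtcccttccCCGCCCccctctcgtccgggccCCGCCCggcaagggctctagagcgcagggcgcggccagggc
Col25a1, chr3:130180595-130180844, plus strand: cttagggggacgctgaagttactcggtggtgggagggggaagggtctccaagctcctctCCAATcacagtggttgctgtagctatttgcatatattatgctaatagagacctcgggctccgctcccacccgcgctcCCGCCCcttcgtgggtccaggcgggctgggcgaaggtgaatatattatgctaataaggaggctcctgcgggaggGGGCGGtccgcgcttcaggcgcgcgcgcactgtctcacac
Col28a1, chr6:8192618-8192867, minus strand: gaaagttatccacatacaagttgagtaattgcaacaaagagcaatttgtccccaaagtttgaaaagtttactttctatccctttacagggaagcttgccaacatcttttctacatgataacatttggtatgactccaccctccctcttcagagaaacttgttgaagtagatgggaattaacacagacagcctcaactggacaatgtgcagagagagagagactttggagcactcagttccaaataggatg

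The Col3a1 window held a TATA match starting 117 bases before the start, and the Col5a3 window a CCAAT match at 122 and GC matches at 63 and 41 bases before it. The Col25a1 window, of a gene on the testis side, held the same kinds of match, a CCAAT box at 191 and GC boxes at 114 and 40 bases before the start. The Col28a1 window held none. RefSeq windows were found for 35 of the 44 members, 38 windows in all. A GC box lay in 22 of them (57.9%) against 32.75% of the 32841 windows of all genes, a CCAAT box in 13 (34.2%) against 33.9%, and a TATA box in 5 (13.2%) against 12.4%. These are counts of letters, and binding was not measured.

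In wild-type mice, collagen genes took a larger share of the reads in muscle than in testis, and different classes led. Collagen genes took 0.179%, 0.177% and 0.144% of the reads of the muscle of wild-type mice A, B and C, and 0.0816%, 0.0846% and 0.0704% of wild-type testis, means of 0.167% ± 0.0195 and 0.0789% ± 0.00745 (SD, n = 3). The lowest muscle library stood above the highest testis library. Fibrillar chains made up 49.3% ± 1.245 of the normalised collagen counts of wild-type muscle and 17.3% ± 0.990 in wild-type testis. FACITs showed the reverse, with 2.65% ± 0.351 in muscle and 54.9% ± 1.73 in testis. Type IV and type VI chains took 22.8% and 18.1% in muscle and 10.3% and 6.55% in testis. In bulk tissue, fewer cells of a type and less RNA per cell cannot be told apart.

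**Figure D1:**
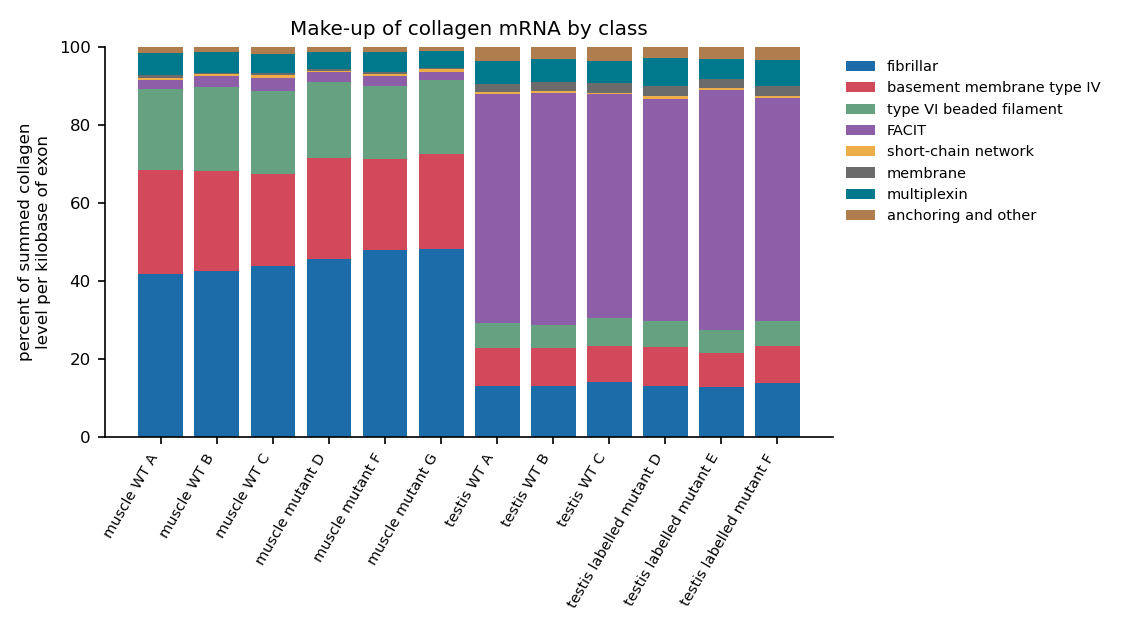
Stacked bars give the percent of the summed collagen level, per kilobase of exon, that each class took in each of the 12 libraries. Fibrillar, type IV and type VI chains fill most of each muscle bar, whereas FACITs take the largest share of each testis bar.

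A few genes dominated each tissue. Col3a1, the chain of type III collagen of pliable tissues, made up 20.0% ± 0.498 of the collagen counts of wild-type muscle. It was followed by Col4a1 with 12.7% and Col1a2 with 12.2%, and 6 genes together reached 67.8%. In wild-type testis Col22a1, a FACIT known from muscle-tendon junctions, made up 25.0% ± 2.99, followed by Col16a1 with 13.04% and Col2a1 with 6.23%. Per kilobase of exon the highest normalised levels in wild-type muscle were Col3a1 at 592 ± 35.5, Col4a1 at 495 ± 59.4 and Col6a1 at 418 ± 20.9. In wild-type testis they were Col22a1 at 271 ± 54.9, Col16a1 at 191 ± 21.3 and Col9a3 at 153 ± 7.19. The testis ranges of Col22a1 and Col16a1 per library, as normalised counts, were 1955 to 2957 and 1125 to 1377. With the longest transcript as the length, Col1a2 came second in muscle, after Col3a1 and before Col4a1, and the first 3 of testis kept their order.

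Between wild-type muscle and wild-type testis, 42 members passed the filter on low values and 38 of them differed (limma, Benjamini-Hochberg adjusted p below 0.05 over 19994 genes). They were 21 higher in muscle, where 37.3% of all genes tested were higher, and 17 lower (40.5% of the members tested, against 50.6% of all genes). The background is high because the tissues differ in most genes. The median log2 difference was 0.28 over the members and -0.48 over all genes. Leaving out single libraries moved the member median to between -0.07 and 0.78, since genes seen in only 1 tissue then fall under the filter. Then 32 to 36 members were called. The 32 were of 39 tested without testis C, where 7268 of all 16334 genes were called higher and 6326 lower. The 36 were of 41 tested without muscle C, where 6576 of 19064 were called higher and 10145 lower. Without testis A and B, high in islet markers, 1 testis library was left. The member median was then 0.92, against 0.29 over all genes. Col9a2 and Col10a1, both of cartilage, did not pass the filter. Col2a1, Col6a4 and Col25a1 stayed below 10 in each wild-type muscle library, and Col8a2 in each wild-type testis library. These passed the filter through 1 tissue only, which fixed their direction. The 4 members tested and not called were Col4a3, Col11a1, Col14a1 and Col23a1. At a mean of at least 50, 33 members were tested, with 19 called higher and 11 lower. Of all 14817 genes, 6212 and 7082 were then called.

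Among the fibrillar chains, 8 of 11 were higher in muscle, Col2a1 and Col27a1 were lower, and Col11a1 was not called. Col3a1 (ENSMUSG00000026043, chromosome 1, 45311538 to 45349706, GRCm38) read 5785, 6172 and 5477 normalised counts in the muscle of A, B and C and 125, 176 and 150 in their testis. Every muscle library was above every testis library, and the means differed 38.6-fold (log2 difference 5.27, SE 0.12, limma adjusted p = 5.01e-09). Col5a3, a minor chain that joins heterotypic fibrils, had the largest log2 difference on the muscle side. It read 1024, 1030 and 806 in muscle and 19.4, 13.3 and 21.7 in testis, a 52.5-fold difference (log2 5.66, SE 0.21). Col5a2, which takes part in the same type V molecules, was 32.3-fold higher in muscle.

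Type I collagen, the main fibre of tendon, bone and scar, is built from the products of Col1a1 and Col1a2. Col1a1 read 2245, 2247 and 2158 in wild-type muscle and 99.7, 102 and 94.4 in wild-type testis, a 22.5-fold difference (log2 4.48, SE 0.08, limma adjusted p = 1.64e-09). Col1a2 read 3439, 3468 and 3722 against 250, 253 and 243, a 14.2-fold difference (log2 3.83, SE 0.07). Both genes varied little among the 3 mice of a tissue. Col2a1, the main collagen of cartilage, went the other way, with 563, 641 and 632 in wild-type testis and 5.69, 4.33 and 5.14 in wild-type muscle. Its testis mean was 121-fold the muscle mean (log2 -6.67 for muscle against testis, SE 0.21).

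**Figure D2:**
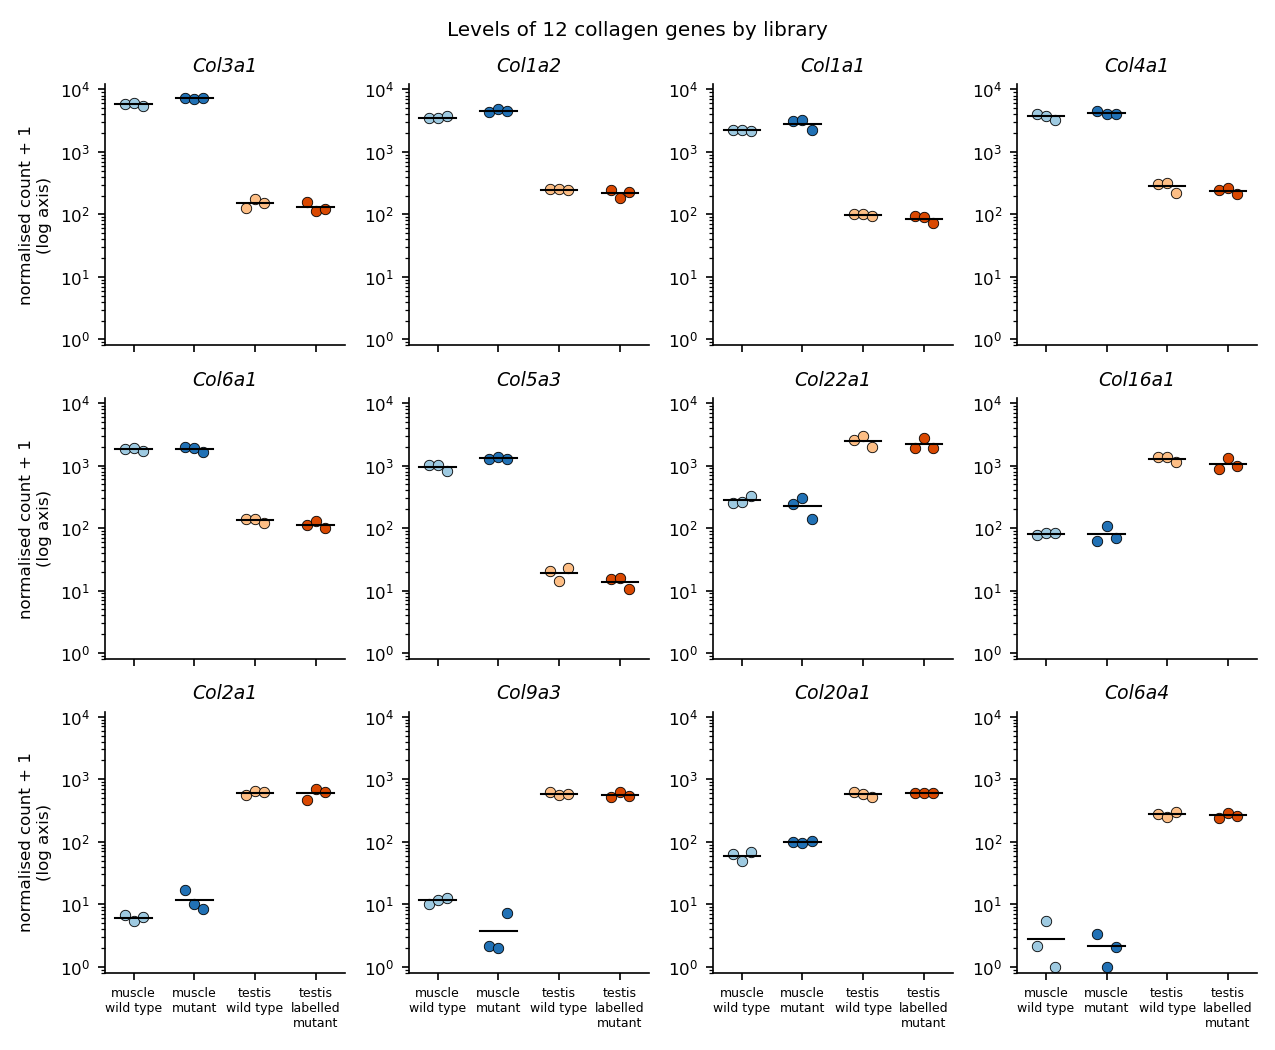
Points are normalised counts plus 1 (log axis) of 12 collagen genes in each library, 3 per group, and lines are group means plus 1. The 6 genes from Col3a1 to Col5a3 lie higher in muscle and the 6 from Col22a1 to Col6a4 higher in testis, with no overlap between the tissues in either genotype.

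The type VI family divided between the tissues. Col6a1, Col6a2 and Col6a3, which form the standard type VI filament around muscle fibres and other cells, were 13.8-fold, 31.2-fold and 21.1-fold higher in wild-type muscle. Col6a1 read 1850, 1911 and 1731 in muscle and 140, 137 and 119 in testis. Col6a6 was also higher in muscle, with a mean of 299.8 ± 25.8 against 30.0 ± 3.62, 9.98-fold. Its neighbours on chromosome 9 went the other way. Col6a5 was 8.83-fold higher in testis, and Col6a4 read 279, 247 and 298 in testis but 1.14, 4.33 and 0 in muscle (log2 -6.93, SE 0.56, limma adjusted p = 4.81e-06). The 3 genes lie in a row on one strand, with 27917 bases between Col6a6 and Col6a5 and 28810 between Col6a5 and Col6a4.

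Type IV chains come as head-to-head gene pairs, and the pairs behaved differently. Col4a1 and Col4a2, which form the common basement membrane network of vessels and muscle fibres, overlap by 22 bases at their starts on chromosome 8. Col4a1 read 4068, 3817 and 3207 in wild-type muscle and 303, 322 and 218 in wild-type testis, 13.2-fold, and Col4a2 was 9.18-fold higher in muscle. The Col4a4 and Col4a3 genes, known from the filtration membrane of the kidney and also from the seminiferous tubule, start 71 bases apart. Col4a4 was higher in testis, with 244, 217 and 208 against 93.3, 114 and 149 in muscle (log2 -0.93, SE 0.19), and Col4a3 read 114, 130 and 113 against 80.8, 114 and 96.3 and was not called (log2 -0.30, SE 0.18, limma adjusted p = 0.149). Col4a6 and Col4a5, 1308 bases apart on chromosome X, were called in opposite directions, with log2 differences of -1.11 and 0.86. The difference between the members of a pair was not tested.
Between Col4a4 and Col4a3, chr1:82586850-82586920, GRCm38.p6, RefSeq, minus strand: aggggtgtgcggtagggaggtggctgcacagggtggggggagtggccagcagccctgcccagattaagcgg

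That 71-base stretch is shown because a single short interval separates the starts of both genes. It is rich in G and C (69.0%) and holds no marked match to the motifs above. Reads of Col4a3 cannot be fully separated from those of an opposite-strand transcript, C430014B12Rik, which shares 563 exon bases (5.65%) with it, since how strand was treated is not given in the sources used here.

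FACITs were the testis class. Of 8 tested, 7 were higher in wild-type testis, none was higher in muscle, and Col14a1 was not called. Col22a1 read 2566, 2957 and 1955 in testis and 255, 261 and 320 in muscle, 8.95-fold higher in testis (log2 -3.14, SE 0.16). Col16a1, which lies near cells in many connective tissues, read 1370, 1377 and 1125 against 76.3, 82.2 and 83.4, 16.0-fold (log2 -3.98, SE 0.11, limma adjusted p = 1.12e-08). Col9a3, a chain of type IX collagen on cartilage fibrils, read 615, 560 and 589 against 9.11, 10.8 and 11.6, 56.0-fold. Its partner Col9a1 was 2.79-fold higher in testis, and Col9a2 was at 1.77 or below in all wild-type testis libraries. Col20a1, which lies 364345 bases from Col9a3 on chromosome 2, was 9.79-fold higher in testis. Col9a3 shares 234 exon bases (6.07%) with Tcfl5 on the other strand, whose mean in wild-type testis was 3475, and reads of the shared bases cannot be told apart without strand.

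The remaining classes were smaller. Both short-chain collagens tested, Col8a1 and Col8a2, and both multiplexins, Col15a1 and Col18a1, were higher in muscle, the latter pair carrying the precursors of anti-angiogenic fragments. Among the membrane collagens, Col13a1 of the neuromuscular junction was higher in muscle (3.07-fold), Col25a1 and Col17a1 were higher in testis, and Col23a1 was not called. Col7a1, which forms the anchoring fibrils of skin, was 9.30-fold higher in muscle, with 473.5, 440 and 576 against 61.8, 43.3 and 55.1. Col26a1, first described in testis and ovary, was 11.6-fold higher in testis, and Col28a1, known from peripheral nerve, 4.54-fold.

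**Figure D3:**
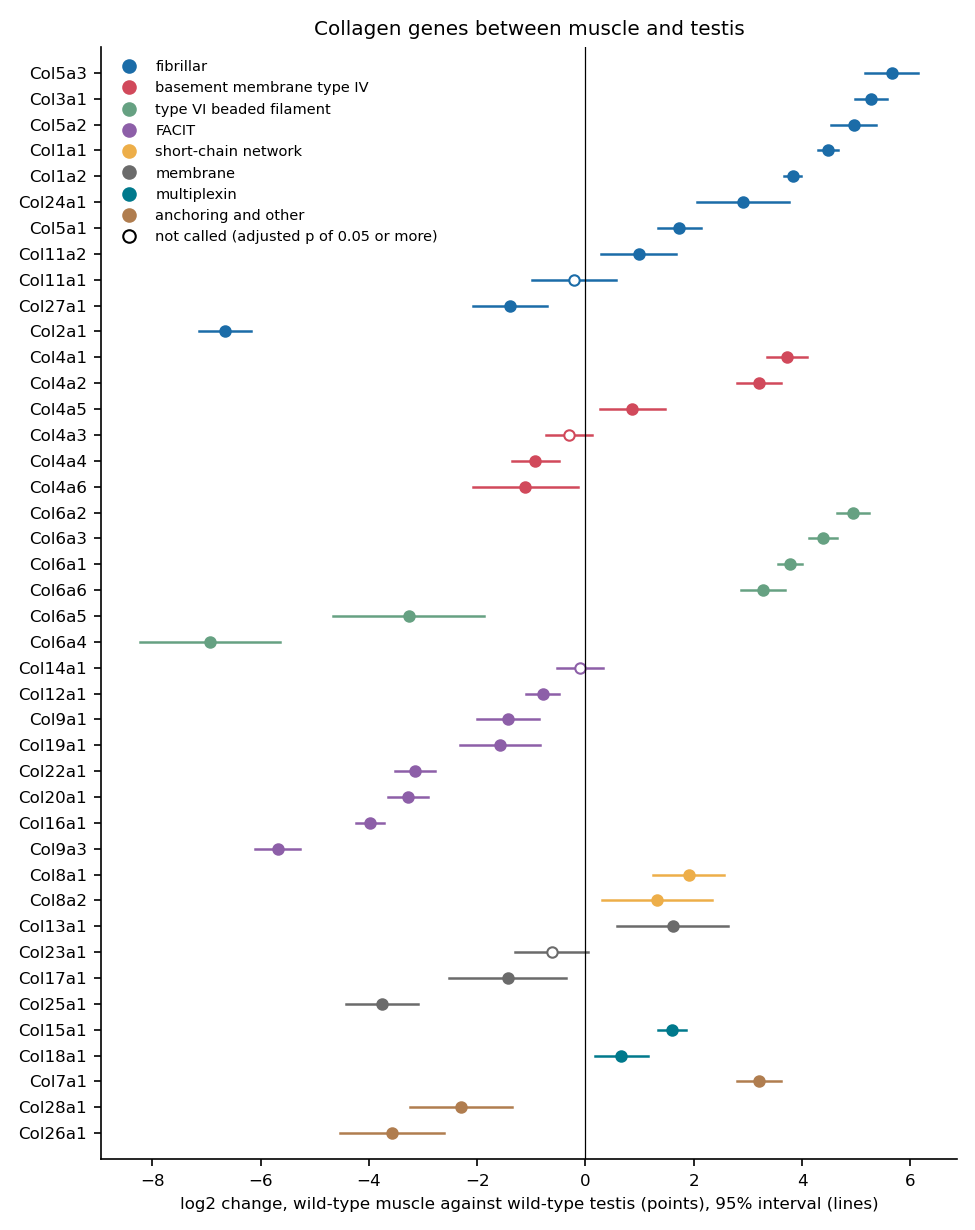
Points are the log2 difference of wild-type muscle against wild-type testis for the 42 collagen genes tested, ordered within class, with 95% intervals as lines (limma, n = 3 per tissue). Filled points passed an adjusted p of 0.05. Differences run from 5.66 for Col5a3 to -6.93 for Col6a4.

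The same comparison in the other 6 libraries, mutant muscle against testis labelled mutant, called 21 members higher (36.3% of all 20021 genes tested were higher) and 17 lower (49.7%). With the mouse as a block, which uses only the 4 libraries of mice D and F, 20 were called higher and 12 lower. Of all 20021 genes, 6805 were then called higher and 9539 lower. All 42 members tested in both comparisons had the same sign in each, 21 were called higher in both and 15 lower in both. Col3a1 was 54.9-fold higher in these muscle libraries than in these testis libraries, with 7306, 7094 and 7267 against 158, 114 and 122.

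Marker genes of each tissue were also counted in the other, at levels near those of the scarcest collagens. Germ cell markers summed in muscle to 0.337% to 1.45% of their testis mean. Col2a1 stood in muscle at 0.718% to 2.65% of its testis mean, Col9a3 at 0.178% to 2.01% and Col6a4 at 0% to 1.61%, so their muscle levels lay in or near that range, and whether muscle itself makes them was not tested. Col16a1, Col20a1 and Col22a1 stood higher, at 5.23% to 17.6%. In testis, skeletal muscle markers summed to between 0.00612%, in wild-type B, and 0.682% of their muscle mean. Col1a1, Col1a2 and Col3a1 stood in testis at 1.75% to 6.24% of their muscle means. In wild-type B, with the fewest muscle transcripts, Col1a1 read 102 against 99.7 and 94.4 in A and C. Col3a1 was also highest in B, at 176 against 125 and 150, and so was Col5a2, at 22.5 against 15.9 and 20.9. Col5a3 was lowest in B, at 13.3 against 19.4 and 21.7. The part of muscle transcripts in these testis levels was not tested.

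Fibroblast and endothelial markers, among others, moved with the muscle side of the collagens, and tendon markers did so by gene but not by sum. The 6 fibroblast genes summed to 13216 to 15353 in wild-type muscle and 537 to 632 in wild-type testis, with none at 0. Endothelial markers summed to 7096 to 7974 and 492 to 706. Of 5 markers of peritubular and vascular smooth muscle, 4 were called higher in muscle, with mean sums of 3984 against 895. Adipocyte (6 of 6), macrophage (6 of 7) and Schwann cell markers (5 of 6, with 1 called lower) were also called higher in muscle. Of 6 tendon markers tested 5 were higher in muscle and 1 was lower, but the list summed to 1427 to 2293 in muscle and 3115 to 3245 in testis, with 1 of 7 at 0 in each wild-type testis library. Sertoli, Leydig and germ cell markers moved with the testis side, all 20 of their genes being lower in muscle. Their part in the collagen differences was not tested.

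Ratios between chains of one molecule, and between the chains of types III and I, were higher in wild-type muscle than in wild-type testis. Per exon length, the Col1a1 level was 1.24, 1.23 and 1.098 times the Col1a2 level in wild-type muscle and 0.756, 0.760 and 0.735 times in wild-type testis. The groups did not overlap. Means were 1.26 ± 0.0446 and 0.883 ± 0.0473 for Col4a1 to Col4a2, 0.492 ± 0.0367 and 0.218 ± 0.00780 for Col6a2 to Col6a1, 0.281 ± 0.0138 and 0.184 ± 0.00231 for Col6a3 to Col6a1, and 1.75 ± 0.0741 and 1.02 ± 0.163 for Col3a1 to Col1a1. With the longest transcript as the length, the Col1a1 to Col1a2 ratios became 0.565 and 0.357, so a single ratio depends on the length used. A single length per gene scales a ratio alike in both tissues, so the order of the tissues cannot depend on which length was chosen. Transcripts of different length in the 2 tissues would not be scaled alike, and their use was not tested. In mutant muscle the Col1a1 to Col1a2 ratio was 1.34, 1.23 and 0.958 in D, F and G, a range that spans the wild-type values. No ratio was tested.

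The genes that process and surround collagen were examined from 6 lists, against 37.3% of all genes called higher and 50.6% lower. Of 17 tested genes for chain modification and folding, 14 were higher and 1 lower in wild-type muscle. Serpinh1, the collagen chaperone, was 1557 ± 111 in muscle and 127 ± 4.55 in testis (log2 3.61, SE 0.09), and the prolyl hydroxylase subunit P4ha1 had a log2 difference of 1.90. Of 12 genes for propeptide removal and crosslinking, 11 were higher and 1 lower, among them the procollagen proteinase Bmp1 (log2 3.16) and the crosslinking enzyme Loxl2 (log2 3.60). All 10 tested genes of collagen breakdown and its inhibitors were higher, led by the gelatinase Mmp2 at 1096 ± 36.8 against 9.89 ± 3.88. Of the 14 listed, 11 passed the filter on low values within muscle but 7 within testis. Part of the 10 therefore entered through their muscle level, which favours that direction. Of 15 other matrix partners 14 were higher, such as the fibril-binding proteoglycan Dcn (log2 4.88) and the basement membrane proteoglycan Hspg2 (log2 3.28).

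Of 9 receptors tested, 4 were higher and 2 lower, and the share higher was near that of all genes. Itgb1, the shared beta chain of collagen-binding integrins, was higher in muscle (log2 2.40), and Itga2, an alpha chain of such integrins, was higher in testis, with 71.9 ± 16.1 against 4.67 ± 0.417. Of 12 upstream signals, 8 were higher and 2 lower, including Tgfb2 (log2 5.54) and the signal mediator Smad3 (log2 3.39). The medians of the lists lay between 0.29 for receptors and 3.53 for breakdown, against -0.48 for all genes.

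Between mutant and wild-type muscle, no collagen gene passed the test over all 16246 genes (limma, adjusted p below 0.05), in which 0.0369% of genes were called. None passed with edgeR, and none of those with an adjusted p by DESeq2, which gave none to 15 of the 38 members tested. At an unadjusted p below 0.05 there were 7 members (18.4%, against 9.52% of all genes), all higher in the mutant, with 6 by edgeR and 7 by DESeq2. The 7 became 4 without wild-type A, B or C or without mutant F. Over all genes, 1132 of 15994, 672 of 16030, 1372 of 15992 and 892 of 16028 then passed, in that order. With all libraries it was 1546 of 16246. Without mutant D the members stayed at 7, where 3391 of 15964 genes passed. Without mutant G they were 6, where 687 of 16016 genes passed. The groups did not overlap in 9 members, all higher (23.7%, against 5.11% of all genes higher), and in no member lower (8.85% of all genes). The median log2 difference was 0.12 over the members, with 25 higher and 13 lower, and -0.04 over all genes, of which 44.48% were higher. It was 0.18 over the members without mutant F and G. Left out for low values were Col2a1, Col6a4, Col9a2, Col9a3, Col10a1 and Col25a1.

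The fibrillar chains stood on one side. All 10 tested had a higher mean log2 level in mutant muscle, with a median difference of 0.33 and a range of 0.02 to 0.68, but Col11a1 turned with edgeR and DESeq2, which put 9 of 10 higher. With single libraries left out, 9 or 10 were higher. Col3a1 read 7306, 7094 and 7267 in the mutants D, F and G against 5785, 6172 and 5477 in the wild type (log2 0.32, SE 0.14, limma adjusted p = 0.519). Col1a2 read 4347, 4908 and 4481 against 3439, 3468 and 3722 (log2 0.37, SE 0.13). In both genes every mutant library was above every wild-type library, by less than the test over all genes requires. Col1a1 read 3077, 3183 and 2267 against 2245, 2247 and 2158, so that mutant G lay close to the wild types.

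Col5a3 read 1257, 1385 and 1257 in mutant muscle against 1024, 1030 and 806 (log2 0.45, SE 0.14), and Col11a2, a minor chain of cartilage fibrils, read 112, 98.8 and 132 against 64.9, 62.8 and 86.0 (log2 0.68, SE 0.22). The smallest p of the family belonged to Col20a1, with 98.1, 93.7 and 104 against 61.5, 47.6 and 66.8 (log2 0.75, SE 0.22, limma adjusted p = 0.519). These groups did not overlap either. The type VI chains Col6a1, Col6a2 and Col6a3 had log2 differences of 0.01, 0.09 and 0.09, with 95% intervals of -0.27 to 0.29, -0.22 to 0.39 and -0.19 to 0.38. Fibrillar chains made up 53.8% ± 1.54 of the collagen counts of mutant muscle, against 49.3% ± 1.245 in the wild type. Collagen genes took 0.197%, 0.219% and 0.205% of the reads in mutant D, F and G, all above the wild-type libraries.

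**Figure D4:**
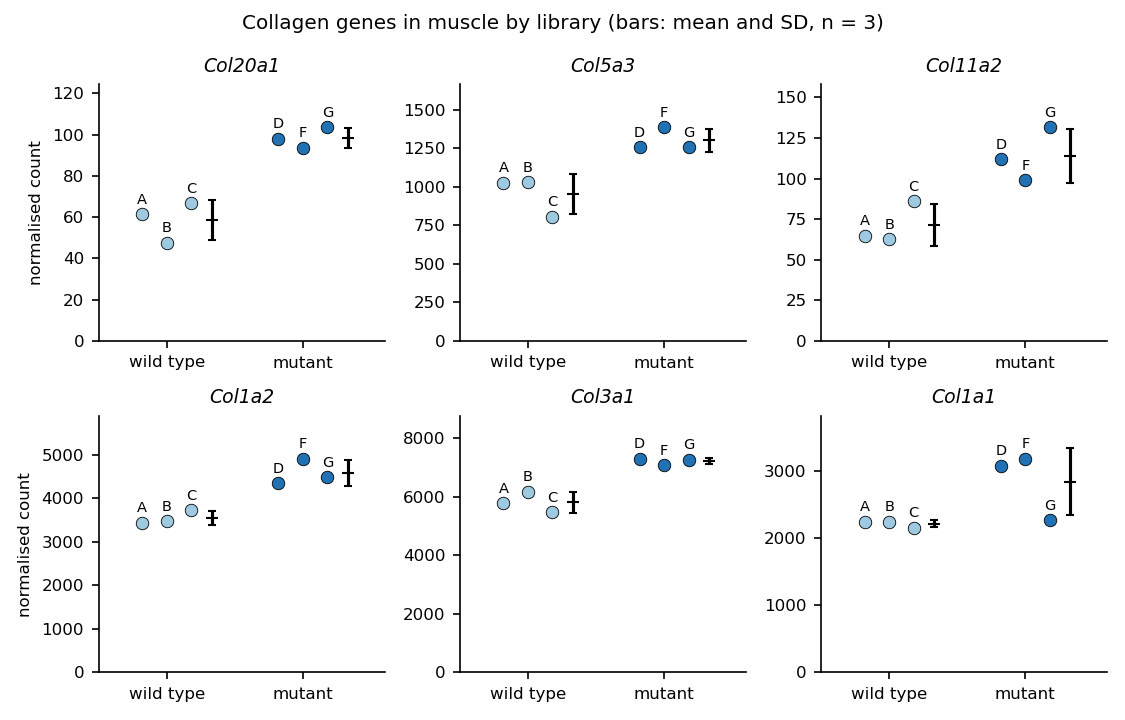
Points are normalised counts of 6 collagen genes in muscle with the letter of the mouse, and bars give the mean and SD of 3 libraries. Mutant values lie above all wild-type values in each panel, narrowly so for mutant G in Col1a1 (2267 against 2247), and no difference passed the test over all genes.

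Marker sums were compared between the muscle groups, and of those given here only the erythroid sums did not overlap. All 7 tendon markers were higher in mutant muscle (median log2 0.63, none called), with sums of 2004 to 2974 against 1427 to 2293 and none at 0. Fibroblast marker sums were 12059 to 20599 against 13216 to 15353, and 5 of 6 markers were higher. All 6 Schwann cell markers were higher, with sums of 2193 to 3036 against 2217 to 2576. Erythroid marker sums were 3447 to 5714 against 2615 to 2751, and adipocyte sums 25363 to 84343 against 8218 to 35634, the highest in mutant G. Of the 5 skeletal muscle markers 4 were lower and 1 higher, with sums of 1118700 to 1898270 against 1732140 to 2169490. All 7 germ cell markers were lower, with sums of 443 to 1909 against 1364 to 1718. The part of these cells in the collagen values was not tested. Without mutant F and G, the libraries high in islet markers, 8 of the 10 fibrillar chains were higher, with a median of 0.28, and the mutant side was then 1 library.

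In testis, no collagen gene passed the test over 19543 genes, in which 0.0205% were called, nor did any with edgeR or DESeq2. At an unadjusted p below 0.05 there were 4 members of 41 (9.76%, against 7.09% of all genes), all lower in the libraries labelled mutant, with 4 by edgeR and 2 by DESeq2. The 4 became 7 without wild-type C, where 1290 of all 19199 genes passed, and 1 without wild-type B, where 918 of 19294 passed. With all libraries it was 1386 of 19543. Without testis E there were 6 members, where 2172 of 19357 genes passed. Without wild-type A or testis D or F there were 3, 3 and 4. Over all genes, 957 of 19295, 1177 of 19208 and 1046 of 19243 then passed. The groups did not overlap in 6 members, all lower (14.6%, against 3.67% of all genes lower), and in no member higher (9.72% of all genes). The median was -0.17 over the members, 11 higher and 30 lower, and 0.03 over all genes, of which 59.57% were higher. It was -0.11 without testis F, and also without wild-type A and B. All 11 fibrillar chains had a lower mean log2 level, with a median of -0.21, and 9 to 11 did when single libraries were left out.

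Col27a1, a fibrillar chain of cartilage, had the smallest p. It read 159, 177 and 154 in testis D, E and F labelled mutant against 259, 232 and 189 in the wild types (log2 -0.46, SE 0.13, limma adjusted p = 0.696). Col6a6 read 23.2, 17.4 and 14.2 against 31.8, 32.5 and 25.9 (log2 -0.71, SE 0.29), and Col28a1 read 60.5, 90.3 and 94.1 against 104, 113 and 105 (log2 -0.42, SE 0.18). These 3 did not overlap between groups. Col4a6 read 31.3, 42.3 and 45.3 against 56.5, 55.0 and 50.9 (log2 -0.46, SE 0.21), also without overlap. Col16a1 overlapped, with 872, 1331 and 985 against 1370, 1377 and 1125 (log2 -0.30, SE 0.13).

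Col22a1, the most abundant testis collagen, had a log2 difference of -0.19 with a 95% interval of -0.52 to 0.14, and the interval of Col16a1, the next, was -0.58 to -0.011. Col2a1, Col9a3 and Col20a1 had log2 differences of -0.06, -0.07 and 0.08, with 95% intervals of -0.33 to 0.21, -0.26 to 0.12 and -0.11 to 0.26. Germ cell markers summed to 133036 to 145550 in the libraries labelled mutant and 117168 to 133499 in the wild type, and all 7 were higher. Endothelial sums were 483 to 541 against 492 to 706, and 5 of 6 markers were lower. Schwann cell sums did not overlap, at 298 to 304 against 325 to 346, with 3 of 6 markers lower and none at 0. Erythroid sums, at 303 to 345 against 246 to 292, did not overlap either, in the other direction. Their part in the collagen values was not tested. Without wild-type A and B, which leaves 1 wild-type library, 9 of the 11 fibrillar chains were lower and the median stayed at -0.21.

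**Figure D5:**
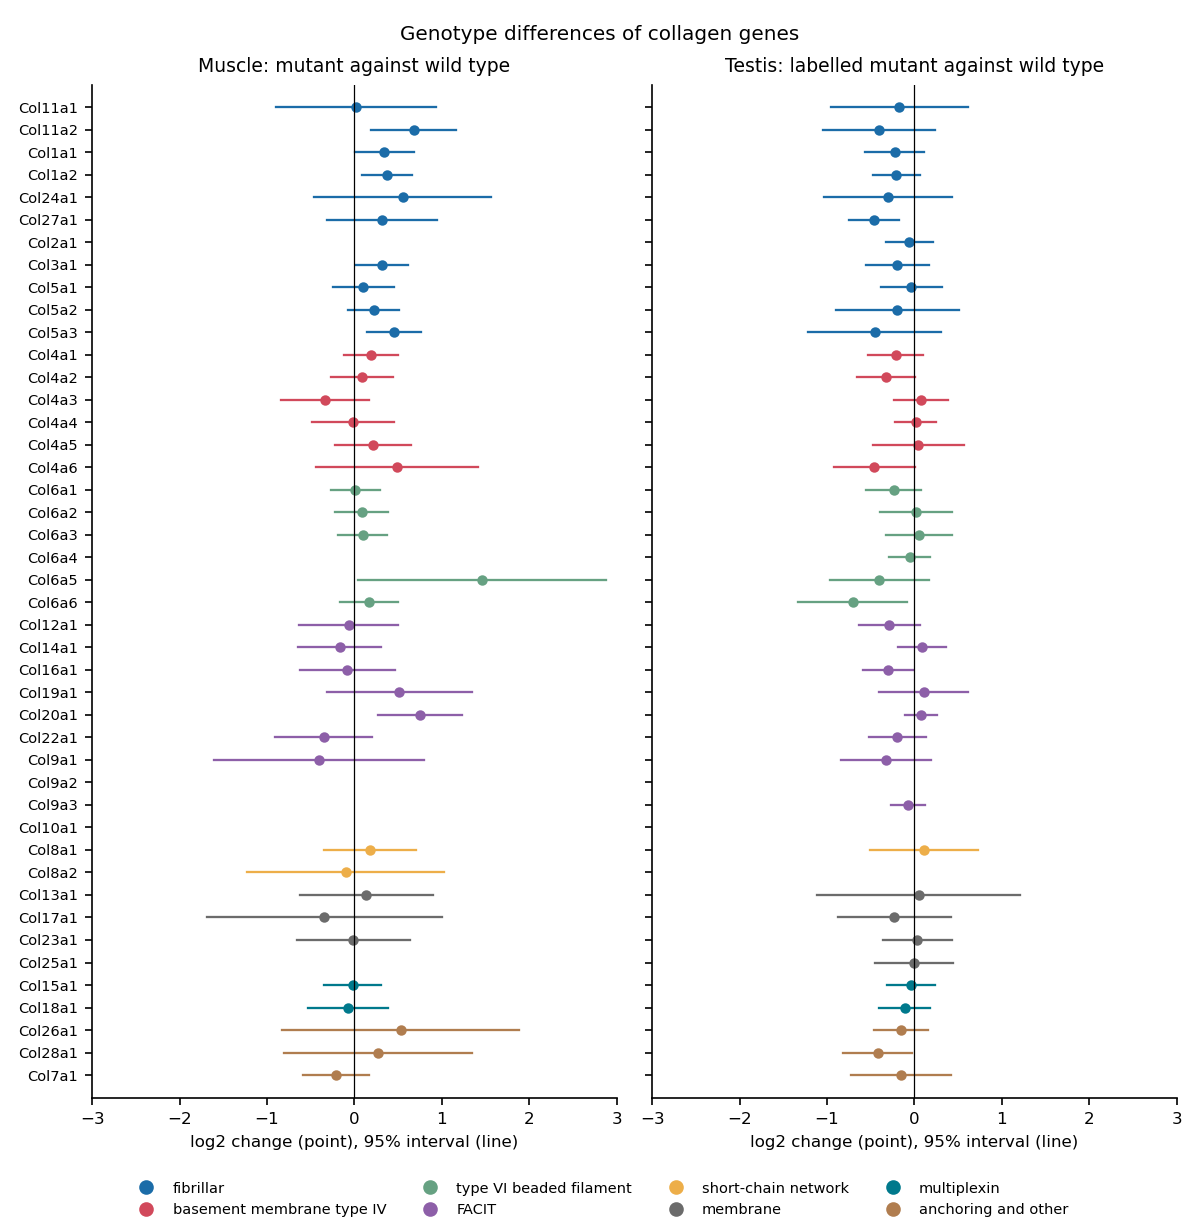
Points are log2 differences of mutant against wild-type muscle (left) and of testis labelled mutant against wild-type testis (right) for each collagen gene tested, with 95% intervals as lines (limma, n = 3 per group). Fibrillar chains at the top lie right of 0 in muscle and left of 0 in testis, and no gene passed the test over all genes.

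Whether the difference between libraries labelled mutant and wild type differed between the tissues was tested as an interaction over 14677 genes, of which 0.0136% were called. The testis libraries entered as labelled, although their Bckdk goes against the label. With those labels turned, each value would be the sum of the muscle and testis differences in place of muscle minus testis, which for Col1a2 were 0.37 and -0.21. No collagen gene passed with limma or edgeR, nor with DESeq2, which gave 22 of the 37 members tested no adjusted p. At an unadjusted p below 0.05 there were 9 members (24.3%, against 8.69% of all genes), with 8 by edgeR and 9 by DESeq2, and all 9 were more positive in muscle. Without the 4 libraries high in islet markers, mutant muscle and wild-type testis were each a single library. The member median was then 0.23, against -0.02 over all genes. With all libraries, all 10 fibrillar chains and all 5 type VI chains tested had a positive value, with medians of 0.57 and 0.25. The median over the members was 0.22, with 29 positive and 8 negative. Over all genes it was -0.08, with 39.23% positive. The member median was 0.35 without testis E and 0.34 without wild-type testis C. The smallest p values were those of Col1a2 (log2 0.58, SE 0.16), Col20a1 (0.67, SE 0.20) and Col6a6 (0.87, SE 0.28), with a limma adjusted p of 0.562 each. Without mutant muscle D, Col1a2 passed (log2 0.61, limma adjusted p = 0.0424). In that fit both mutant muscle libraries were those high in islet markers, and 86 genes were called higher and 865 lower over the whole table.

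No gene of the 6 lists around collagen was called in muscle, in testis or in the interaction. The smallest p values in muscle included Timp1, an inhibitor of matrix proteases, at 25.2 ± 7.26 in the mutant against 7.77 ± 1.31 (log2 1.55, SE 0.44, limma adjusted p = 0.519), the crosslinking enzyme Lox (log2 0.73, SE 0.29), P4hb (0.41) and Ppib (0.44), which help fold procollagen, and the collagen-binding protein Sparc (0.38). Pcolce2, an enhancer of propeptide removal, was at 255 ± 33.6 against 335 ± 7.70. In testis they included the collagen receptor Ddr2 (log2 -0.62, SE 0.20), Fn1, the fibronectin gene (-0.37), and Smad3 (-0.48).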

How the data were processed

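The labels' protocols describe polyA-selected RNA read from both ends, in 12 libraries. Tools listed in the submitters' processing notes are HTSeq 0.11.2, DESeq2 1.46.0, HISAT2 2.1.0, fastp 0.23.4 and Picard 1.119, with the build GRCm38.p4; the role of each is not given in the sources used here. The authors deposited signal values, which the values themselves show to be whole read counts scaled by a factor for each library. All values came out as whole reads within 0.001 after division by a step per library, except for 26 values turned into dates in testis D, none a collagen, which were treated as missing. The deposited log2 table holds rlog values of 27384 features, used as an alternative.

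Members, classes and lists were chosen with earlier results of these data known. Log2(normalised count + 1) was compared with limma 3.58.1 (R 4.3.3; two-sided, with a variance trend) over the genes that reached 10 in 3 or more of the 6 libraries, with Benjamini-Hochberg adjustment and called below 0.05. Differences are on that scale, which understates those of low genes; folds are ratios of group means. A permutation test of 3 against 3 libraries cannot go below p = 0.1. Libraries came from 7 mice by column number. As 5 mice gave both tissues, the numbers pair these libraries by animal; the deviations of same-mouse libraries from their group means correlated at -0.042 to 0.0035 over 12778 genes. Alternatives included edgeR 4.0.16 and DESeq2 1.42.0 on the recovered reads. The fit was tested on simulated data.

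Named members were the called ones or the 5 smallest p per genotype comparison, the 8 largest differences each way between tissues with a mean of at least 50, the 3 smallest p of the interaction, the 3 highest per exon length, and the chains of the ratios. Any other member with values of its own was chosen after they were seen. From each list, up to 4 called genes or the 2 with the smallest p could be named. Positions and exon lengths are from GENCODE M21, GRCm38. Upstream sequences are from RefSeq, GRCm38.p6.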

Additional observations from a re-analysis of the deposited data

How the results depend on the processing

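No collagen gene was called between libraries labelled mutant and wild type in muscle or testis under any alternative run (pseudocounts, filters, scalings, rlog values, edgeR, DESeq2, no variance trend, 1 model of 12 libraries, each library left out, and without the libraries high in islet markers), though DESeq2 gave 15 members in muscle no adjusted p. For the interaction the count was 0 to 1 when single libraries were left out, the 1 being Col1a2 without mutant muscle D; the cause was not tested. Between tissues, the paired fit with a replicate block by mouse called 38 members in the wild type and 32 (20 higher, 12 lower) in mutant muscle against testis labelled mutant, and 0 in the interaction. Of all genes it called 7365 higher and 10038 lower of 19994 in the wild type, and 6805 and 9539 of 20021 in the other. TMM scaling moved the median of all genes between wild-type tissues from -0.48 to -0.31. It called 21 members higher and 16 lower, and 7918 and 9709 of all 19994 genes. In testis the 4 members at an unadjusted p below 0.05 became 2 with all 12 libraries in 1 model or at a mean of at least 50. Over all genes, 476 of 19543 and 1115 of 14081 then passed. The share of reads in collagen genes depends on the denominator by construction. Without mitochondrially encoded genes it was 0.227% in mutant muscle. Without the 100 most abundant genes it was 0.308% and 0.367% in wild-type and mutant muscle, and 0.0913% and 0.0793% in wild-type testis and testis labelled mutant. With the longest transcript as the length, 17 of 20 chain ratios moved by more than their SD. Each moved by a factor that is set by the lengths and equal in all libraries. Members below a normalised count of 10 rest on few reads.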
